A study of Mus musculus with 12 samples.

Results

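The response to cold was examined in adipocyte nuclei of mPRAT, a mouse fat depot named in the labels only by this abbreviation, which usually stands for medial perirenal adipose tissue. Nuclei were taken from 2 single-nucleus RNA sequencing libraries, 1 from mice kept at 4 °C for 3 days and 1 from mice at 22 °C. A nucleus was kept with at least 300 detected genes and at most 10% of its UMIs (unique molecular identifiers, 1 per captured transcript) from mitochondrial genes. It was counted as an adipocyte when the UMIs of Adipoq, Plin1, Plin4, Lipe, Cidec and Acsl1 summed to at least 3 and to more than those of Flt1, Ptprb, Lama2, Dcn, Mrc1 and Ptprc. The rule took 2337 nuclei of the cold library and 4264 of the 22 °C library, 6601 of 106898 kept nuclei and of 74816 adipocyte nuclei in the 12 libraries of the series. The series covers mPRAT, lPRAT, iBAT and iWAT depots at several ages, with cold exposure at the oldest age only. Both mPRAT groups were male C57BL/6J mice on normal chow, without a transgene or other allele in the labels. Their titles give an age of 6 months and their characteristics 16 weeks. Nuclei were stained with 7-AAD, sorted and loaded on the 10x 3′ v3.1 chemistry. How many animals were pooled in a library is not stated.

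Each group was 1 library, so no test between temperatures was possible and no p-value is given. Levels are CPM, UMIs of a gene per 1e+06 UMIs summed over the adipocyte nuclei of a library. Each ratio is the level at 4 °C over that at 22 °C, with a 95% exact conditional binomial interval that covers counting error only. A difference between the libraries also holds differences between animals, dissections and preparations, which cannot be told apart from cold. Nuclei were selected on the UMIs of the rule genes, and gene lists were chosen with results of this contrast known, so all values are a description.

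Brown adipocytes burn fatty acids and glucose to make heat, through uncoupling protein 1 in the inner mitochondrial membrane. In cold, noradrenaline from sympathetic nerves acts on beta-adrenergic receptors, and cyclic AMP and protein kinase A then drive lipolysis and the transcription of thermogenic genes. The same cells also take up circulating lipid and glucose and make new fatty acids, which refill their droplets. White adipocytes store triglyceride and secrete hormones such as leptin, and perirenal fat of mice is known to hold brown and white adipocytes side by side.

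The 4 markers given for the label are genes of the rule, so their presence was fixed by the selection and is no check of it. Adiponectin (Adipoq), a hormone of adipocytes, stood at 218 CPM at 22 °C and 81.2 at 4 °C, a ratio of 0.37 (0.35 to 0.40). Perilipin 1 (Plin1), a coat protein of lipid droplets, stood at 1085 and 964 CPM. Hormone-sensitive lipase (Lipe) stood at 1059 and 984 CPM, and Cidec, which promotes droplet fusion, at 1071 and 624 CPM. Each of the 4 was lower at 4 °C. At the edge of the rule, 57 cold and 164 warm nuclei had a sum of exactly 3, while 94 and 247 had a sum of 2 and were left out.

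The libraries differed in more than temperature. The cold library held 77838918 UMIs and the 22 °C library 49013005, but 66.0% of the cold barcodes were above the mitochondrial limit, against 2.03%. The kept adipocyte nuclei gave 12173281 UMIs at 4 °C and 30581974 at 22 °C, with medians of 4540 and 6136.5 UMIs per nucleus. Mitochondrial genes made up 1.78% of the summed adipocyte UMIs at 4 °C and 0.319% at 22 °C, and 12 of 13 mitochondrial genes were at least 2-fold higher. Marker lists of other cell types also moved inside adipocyte nuclei. All 10 B cell markers were lower at 4 °C, summing to 15.2 CPM against 428, with Ighd and Fcer2a at 0 in the cold library. The 9 T and natural killer cell markers summed to 18.1 against 119 CPM, the 8 macrophage markers to 84.9 against 328, and the 8 stem and progenitor markers to 78.3 against 293, with all members lower. All 10 urothelial and epithelial markers were higher, summing to 387 against 26.4 CPM, as were all 6 adrenal cortex markers, at 157 against 63.3 CPM. The sums of 7 endothelial markers were 35.6 and 60.9 CPM, of 6 mural markers 40.5 and 42.3, and of 5 Schwann markers 59.6 and 49.5, at 4 and 22 °C respectively. The rule limits Mrc1 and Ptprc of the macrophage list, Lama2 and Dcn of the progenitor list and Flt1 and Ptprb of the endothelial list. On that condition it left out 949 warm and 23 cold nuclei with an adipocyte sum of at least 3. Kidney, mesothelial and muscle markers summed to at most 23.1 CPM in either library, with Slc12a1, Umod and Slc12a3 at 0 in the cold library and Myh4 and Myh1 at 0 in both. The libraries shared 33 cell barcodes, where library pairs of the series shared between 3 and 76. The part of these differences in any result here was not tested. Nuclei with no UMI of the 6 adipocyte genes, and barcodes above the mitochondrial limit, served as a measure of RNA from elsewhere. A gene is called highest in adipocyte nuclei when, in the library where it was higher, its CPM exceeded that in both of these. Only that library is read, so a difference between libraries can itself help a gene to pass. Genes named below met this unless other levels are given beside them or the text says otherwise.

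Of 8778 genes with a mean of at least 10 CPM over both libraries, 628 (7.15%) were at least 2-fold higher at 4 °C and 497 (5.66%) at least 2-fold lower. The median log2 ratio of all tested genes was -0.02. Among the 4280 tested genes that were highest in adipocyte nuclei, 332 (7.76%) were higher and 237 (5.54%) lower by that fold. Since a difference helps a gene to pass that filter, these shares are no check of the counts. Without the mitochondrial limit, which adds 1064 cold and 60 warm barcodes, the counts over 9042 tested genes were 983 higher (10.9%) and 847 lower (9.37%). Over all 7353 cold barcodes above that limit, whether or not they met the rule, the 6 adipocyte markers summed to 288 CPM. The 10 urothelial and epithelial markers summed to 2456 CPM there. In cold adipocyte nuclei these sums were 6799 and 387 CPM, the first raised by the rule, which selects on those 6 genes. Sums over the 1064 added cold barcodes alone are not given here, so these values do not describe them. The counts of the thermogenic, fatty acid synthesis and white adipocyte lists below also depended on the limit. Without it, the median log2 ratio was lower in 14 of the 16 lists, and it is given beside those where a positive median turned or came near 0. Negative medians moved the same way, for example insulin signalling from -0.12 to -0.80 and white adipocyte genes from -0.51 to -1.19. The fatty acid synthesis median moved from 1.17 to 0.46 and so stayed above both. Of the genes described below as higher at 4 °C or with ratios just above 1, Acaca, Cidea, Gys2, Lpl, Otop1, Pnpla2, Ppara, Ppargc1b, Ppp1r3c, Prdm16, Retn, Slc2a4, Slc7a10 and Srebf1 had ratios below 1 without it.

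**Figure D1:**
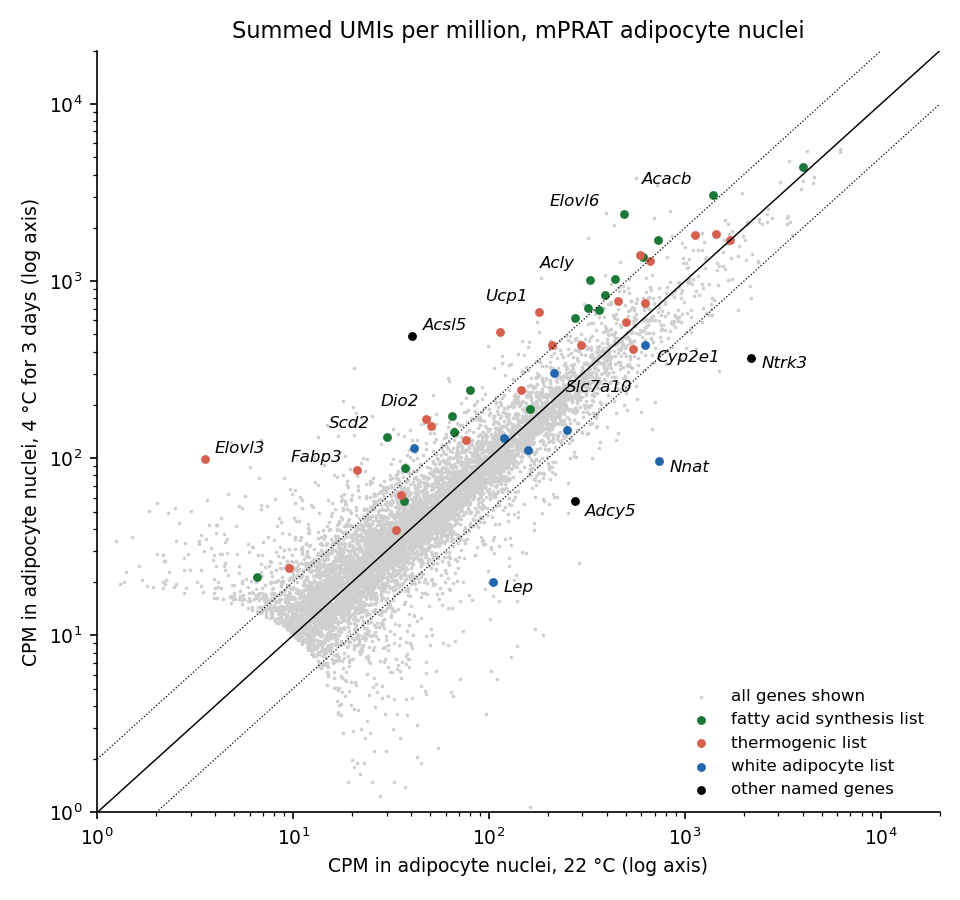
Each point is 1 gene, with its CPM in adipocyte nuclei at 22 °C on the horizontal and at 4 °C on the vertical axis, both logarithmic. The solid line marks equal levels, the dotted lines a 2-fold difference, and 18 tested genes below 1 CPM in a library lie outside the axes. Thermogenic genes (red) and fatty acid synthesis genes (green) lie mostly above the solid line, with Elovl3 and Acsl5 far above it, while Nnat, Lep, Ntrk3 and Adcy5 lie far below.

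Thermogenic genes were higher at 4 °C in 21 of 22 members. The 9 members at least 2-fold higher, against 7.15% of all genes, included the uncoupling protein itself, and the median log2 ratio of the list was 0.79. Ucp1 stood at 179.9 CPM at 22 °C and 671 CPM at 4 °C, a ratio of 3.73 (3.602 to 3.858). Elovl3, an elongase of very long chain fatty acids known to respond to cold in brown fat, stood at 3.53 and 98.7 CPM, a ratio of 28.0 (22.9 to 34.4). It had the largest ratio of the list. Acot11, an acyl-CoA thioesterase, stood at 114 and 515 CPM, a ratio of 4.51 (4.33 to 4.71). Fabp3, a cytosolic fatty acid carrier, stood at 21.2 and 85.9 CPM, a ratio of 4.05 (3.67 to 4.47). Dio2, which converts thyroxine to active thyroid hormone, stood at 47.8 and 167 CPM, a ratio of 3.48 (3.25 to 3.73). Ppargc1a, a coactivator of mitochondrial and thermogenic genes, stood at 588 and 1404 CPM, a ratio of 2.39 (2.34 to 2.44). Letmd1, Cox7a1 and Cpt1b, all mitochondrial proteins, had ratios of 3.01, 2.54 and 2.10.

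Other members of the same list had ratios nearer 1. Prdm16, a transcriptional coregulator of brown fat, stood at 622 and 751 CPM, and the droplet protein Cidea at 499.9 and 591. Ppara, the fatty acid-sensing nuclear receptor, stood at 1696 and 1713 CPM, a ratio of 1.01 (0.99 to 1.03). Otop1 and Ppargc1b had ratios of 1.17 and 1.28. The beta-3 adrenergic receptor gene Adrb3, through which noradrenaline acts, was the single member below 1, at 541 and 415 CPM with a ratio of 0.77 (0.74 to 0.79). Without the mitochondrial limit the count at least 2-fold higher was 4 of 22, where 10.9% of all genes were, and the median log2 ratio was 0.13. In nuclei with no UMI of B, T, urothelial or kidney markers, and with Acsl1 left out of the rule, it was 8 of 22. Urothelial or epithelial marker UMIs were found in 79.4% of cold and 7.06% of warm adipocyte nuclei, and B cell marker UMIs in 5.48% and 50.4%. That setting therefore kept only 424 of 2337 cold and 1687 of 4264 warm nuclei. There 605 of all 8467 tested genes were that much higher.

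The cAMP response element is the sequence bound by CREB, a target of protein kinase A, so the promoter of Dio2 is shown with its match to TGACGTCA in capitals. The window is the 250 bases before the RefSeq start site on GRCm38.p6 (chr12:90739039-90739288, minus strand), upstream of the gene and free of annotated exons. The match begins 95 bases before the start. The first bases after this start were not found in any GENCODE transcript of Dio2, so the distance holds for the RefSeq start only. On either strand, TGACGTCA occurs in 1.55% of all 32851 promoter windows of that length and in 1.77% of 27025 genes. Dio2 alone held it among 16 thermogenic genes with a promoter in the RefSeq table. Over the other lists its share ran from 0%, as in fatty acid synthesis genes, to 18.75% of respiratory chain and ATP synthase genes (3 of 16). A match is only a description of letters.
Dio2 promoter: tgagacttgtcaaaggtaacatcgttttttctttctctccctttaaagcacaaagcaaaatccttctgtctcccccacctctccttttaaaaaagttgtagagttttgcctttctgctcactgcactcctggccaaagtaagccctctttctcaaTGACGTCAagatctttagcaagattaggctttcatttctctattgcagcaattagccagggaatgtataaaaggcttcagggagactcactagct

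Of 20 fatty acid synthesis members, 19 were tested, all 19 were higher at 4 °C, and 15 were at least 2-fold higher, where 7.15% of all genes were, with a median log2 ratio of 1.17, the highest of the 16 lists. Without the mitochondrial limit that median was 0.46, below the 1.08 of the immediate early and heat shock list. Their summed level was 9834 CPM at 22 °C and 18895 CPM at 4 °C. The steps from citrate to palmitate were among them. Acly, which makes cytosolic acetyl-CoA from citrate, stood at 326 and 1013 CPM, a ratio of 3.10 (3.02 to 3.19). Slc25a1, the mitochondrial citrate carrier, stood at 37.2 and 88.1 CPM, a ratio of 2.36 (2.17 to 2.57). Acss2, which makes acetyl-CoA from acetate, stood at 439 and 1025 CPM, a ratio of 2.33 (2.28 to 2.39). Acetyl-CoA carboxylase has 2 genes, which differed in their ratios. Acaca, the cytosolic form that feeds synthesis, stood at 4012 and 4428 CPM, a ratio of 1.10 (1.09 to 1.12). Acacb, the form at the mitochondrial outer membrane whose product inhibits entry of fatty acids, stood at 1385 and 3069 CPM, a ratio of 2.22 (2.19 to 2.25). Fasn, fatty acid synthase, stood at 321 and 704 CPM, a ratio of 2.19 (2.13 to 2.26).

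Elovl6, Scd2 and Fads2, which elongate or desaturate fatty acids, had the largest ratios of the list. Elovl6, which elongates palmitate to stearate, stood at 490.2 and 2387 CPM, a ratio of 4.87 (4.77 to 4.97). Scd2, a stearoyl-CoA desaturase, stood at 30.2 and 132 CPM, a ratio of 4.38 (4.04 to 4.75), where nuclei with no adipocyte UMI stood at 43.6 and 59.1 CPM. The related Scd1 stood at 364 and 687 CPM, a ratio of 1.89 (1.84 to 1.94). Elovl5 stood at 80.1 and 244 CPM, and nuclei with no adipocyte UMI at 106 and 85.3. Fads2 stood at 6.57 and 21.4 CPM, below its level of 88.4 CPM in cold nuclei with no adipocyte UMI. NADPH-producing enzymes were also higher, with malic enzyme (Me1) at 732 and 1706 CPM and ratios of 2.67 for Pgd and 1.56 for G6pdx. The log2 ratio of G6pdx turned to -1.0025 when the level in nuclei with no adipocyte UMI was subtracted. Transketolase (Tkt), of the pentose phosphate branch that makes no NADPH, had a ratio of 2.13. The regulators split: Mlxipl, which encodes the glucose-responsive factor ChREBP, stood at 610.4 and 1367 CPM, a ratio of 2.24 (2.19 to 2.29), and Thrsp, a lipogenic regulator induced by thyroid hormone, at 275 and 619.9. Srebf1, which encodes the SREBP-1 factors, stood at 161 and 191 CPM, a ratio of 1.18 (1.12 to 1.24). Without the mitochondrial limit, 3 of 19 genes were at least 2-fold higher, where 10.9% of all genes were. Most list medians were lower in that setting, as given above. In nuclei with no UMI of B, T, urothelial or kidney markers, and with Acsl1 left out of the rule, 13 of 18 were. There 605 of all 8467 tested genes were that much higher.

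The Fasn promoter is shown because many lipogenic promoters carry a CCAAT box, which the factor NF-Y binds. The window of 250 bases before the RefSeq start (GRCm38.p6, chr11:120824548-120824797, minus strand) lies directly upstream of the gene and holds no annotated exon. Capitals mark 3 matches to CCAAT, which begin 90, 62 and 59 bases before the start. The first and the last lie on the opposite strand, so that the printed strand reads ATTGG there, and the last overlaps the second. At least 1 CCAAT on either strand was held by 11 of 17 fatty acid synthesis genes with a promoter in the table, against 37.5% of 27025 genes. The E-box CACGTG, a palindrome, was held by 4 of 17 (Elovl5, Slc25a1, Mlxipl and Insig1) and by 6.86% of genes, and a sterol regulatory element of the form TCACNCCAC by 1 of 17 (Mlxipl) and by 1.22%. Over the other lists, the CCAAT share ran from 31.25% of thermogenic genes to 100% of 3 immediate early and heat shock genes, with 73.3% of clock genes. The E-box share ran from 0% of white adipocyte genes to 33.3% of clock genes. Neither motif was thus particular to fatty acid synthesis genes.
Fasn promoter: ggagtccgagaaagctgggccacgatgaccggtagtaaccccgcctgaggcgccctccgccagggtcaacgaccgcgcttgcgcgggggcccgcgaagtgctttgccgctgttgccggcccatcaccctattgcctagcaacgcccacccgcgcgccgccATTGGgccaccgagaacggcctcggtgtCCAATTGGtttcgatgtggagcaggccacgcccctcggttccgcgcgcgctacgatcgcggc

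Acsl5 had the largest ratio among genes of fatty acid uptake and oxidation. It encodes a long-chain acyl-CoA synthetase, which activates fatty acids for storage or oxidation, and it stood at 40.7 CPM at 22 °C and 487 at 4 °C, a ratio of 11.98 (11.27 to 12.75). Nuclei with no adipocyte UMI stood at 68.4 and 57.0 CPM, so the 22 °C adipocyte level was below theirs. Acsl1, the synthetase used in the rule, stood at 4489 and 3575 CPM, and Acsl3 at 37.1 and 92.3. Of the 26 members of this list, 6 were at least 2-fold higher and 1 lower, against 7.15% and 5.66% of all genes, with a median log2 ratio of 0.49 that turned to -0.17 without the mitochondrial limit. The shuttle into mitochondria included Slc25a20, the carnitine-acylcarnitine carrier, at 205 and 458 CPM with a ratio of 2.23 (2.15 to 2.32). Acadvl, the first enzyme of very long chain beta-oxidation, had a ratio of 2.16.

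The 2 angiopoietin-like inhibitors of lipoprotein lipase on the list had opposite directions. Angptl8, which acts after feeding, stood at 23.9 and 98.7 CPM, a ratio of 4.12 (3.76 to 4.53). Angptl4, which acts in fasting, stood at 136 and 64.6 CPM, a ratio of 0.47 (0.44 to 0.51). Lipoprotein lipase itself (Lpl) stood at 1220.3 and 1872 CPM, and the fatty acid transporter Cd36 at 1867 and 1387. Triglyceride synthesis and droplet genes had a median log2 ratio of 0.41, with 2 of 16 at least 2-fold higher, against 7.15% of all genes. Without the mitochondrial limit that median was -0.22. The 2 genes were Gpam, which adds the first acyl chain to glycerol phosphate, at 391 and 1087 CPM, and Gpd1, which makes that glycerol phosphate, at 459 and 929 CPM. Dgat2, an enzyme of the last step, stood at 887 and 636 CPM, a ratio of 0.72 (0.70 to 0.74).

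The Acsl5 window is shown as that of the gene with the largest ratio of its list (GRCm38.p6, chr19:55253119-55253368, plus strand). It precedes the RefSeq start, lies inside the longer GENCODE gene span of 55251938 to 55297720 and holds no annotated exon. It has 1 CCAAT match on the plus strand, in capitals, that begins 117 bases before the start, a motif present in 33.8% of all windows.
Acsl5 promoter: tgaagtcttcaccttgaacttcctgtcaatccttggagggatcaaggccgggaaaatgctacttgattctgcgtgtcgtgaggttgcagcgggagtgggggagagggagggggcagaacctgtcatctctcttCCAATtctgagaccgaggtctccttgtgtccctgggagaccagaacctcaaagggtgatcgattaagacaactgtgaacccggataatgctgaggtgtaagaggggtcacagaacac

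Glucose and glycogen genes were higher at 4 °C in 22 of 23 tested members, with 7 at least 2-fold higher, against 7.15% of all genes, and a median log2 ratio of 0.93, which was 0.25 without the mitochondrial limit. Gapdh, a glycolytic enzyme, stood at 11.1 and 57.7 CPM, a ratio of 5.21 (4.57 to 5.95), and pyruvate kinase (Pkm) at 116.9 and 380.01, a ratio of 3.25 (3.11 to 3.40). Nuclei with no adipocyte UMI differed in the same direction for both, from 11.02 to 30.8 CPM for Gapdh and from 53.5 to 103 for Pkm. Pygl, a glycogen phosphorylase, stood at 148 and 458 CPM, a ratio of 3.10 (2.98 to 3.23). Ppp1r3b, which directs phosphatase to glycogen and so favours its synthesis, stood at 181 and 515 CPM, a ratio of 2.85 (2.75 to 2.96), and Ugp2, which makes the glucose donor for glycogen, at 141 and 388. Smaller ratios were those of Gys2, a glycogen synthase, at 75.8 and 108 CPM, and of Ppp1r3c, another phosphatase subunit that targets glycogen, at 19.8 and 26.2. Hexokinase 2 (Hk2) stood at 462 and 879.7 CPM, and the insulin-regulated transporter Slc2a4 at 72.3 and 119.

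Nuclear genes of the respiratory chain and ATP synthase were higher in 21 of 22 members but by less, with a median log2 ratio of 0.76, which was 0.20 without the mitochondrial limit, and 3 at least 2-fold higher, against 7.15% of all genes. Cox4i1, a subunit of cytochrome oxidase, stood at 52.4 and 124 CPM, and Cycs, cytochrome c, at 24.2 and 50.3. The mitochondrial genome showed larger ratios, for example mt-Atp6 at 561 and 3825 CPM. Its level in nuclei with no adipocyte UMI was 1408 and 7956 CPM, higher than in adipocyte nuclei of both libraries. Alkaline phosphatase (Alpl) and brain-type creatine kinase (Ckb), which act in creatine cycling, were the 2 of 8 tested members of the creatine and calcium list at least 2-fold higher, against 7.15% of all genes. Alpl stood at 4.02 and 37.6 CPM, against 11.2 and 63.2 in nuclei with no adipocyte UMI, and Ckb at 3.40 and 18.9 CPM, against 16.1 and 14.4.

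Genes of lipolysis and cAMP signalling had a median log2 ratio of -0.14, near that of all genes, but 2 adenylyl cyclases, the enzymes that make cAMP, differed in opposite directions. Adcy3 stood at 116 CPM at 22 °C and 344 CPM at 4 °C, a ratio of 2.96 (2.83 to 3.10). Adcy5 stood at 274 and 57.3 CPM, a ratio of 0.21 (0.19 to 0.23). Gnas, the stimulatory G protein subunit that activates both, stood at 489.8 and 877 CPM, a ratio of 1.79 (1.75 to 1.84). Downstream, the regulatory subunit of protein kinase A Prkar2b stood at 3348 and 2345 CPM, and Pde3b, a phosphodiesterase activated by insulin, at 3333 and 2109. Pnpla2, the first lipase of triglyceride breakdown, stood at 141 and 145 CPM, a ratio of 1.02 (0.97 to 1.08). Of 22 tested members, against 7.15% and 5.66% of all genes, 2 were at least 2-fold higher (Adcy3 and Pde10a, the latter higher in nuclei with no adipocyte UMI) and 1 lower. None of 14 insulin signalling genes differed by 2-fold, where 7.15% of all genes were higher and 5.66% lower by that fold. In that list Irs1, a docking protein of the insulin receptor, stood at 626 and 384 CPM, and the kinase gene Mtor at 187 and 333.

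Lower genes included hormones and white adipocyte genes. Leptin (Lep), the satiety hormone of white fat, stood at 105 CPM at 22 °C and 20.1 CPM at 4 °C, a ratio of 0.19 (0.17 to 0.22). Nnat, which encodes the small membrane protein neuronatin, stood at 739.7 and 96.0 CPM, a ratio of 0.13 (0.12 to 0.14). Of 12 white adipocyte genes, 8 were tested, 2 of them (Nnat and Lep) were at least 2-fold lower, against 5.66% of all genes, and 1 was higher, with a median log2 ratio of -0.51. In nuclei with no UMI of B, T, urothelial or kidney markers, and with Acsl1 left out of the rule, that median was -0.09. Within nuclei of few and of many thermogenic UMIs, divided as described further on, it was 0.27 and -0.59. The higher one was the growth factor gene Fgf1, at 41.4 and 115 CPM. Its level in nuclei with no adipocyte UMI was 24.1 and 107 CPM, and subtracting that level turned its log2 ratio to -1.17. The natriuretic peptide clearance receptor Npr3 stood at 250.4 and 144.9 CPM, a log2 ratio of -0.79. Over 17 alternative settings that log2 ratio ran from -1.58 to -0.02, and it was -0.13 after thinning each nucleus to 2000 UMIs. Cyp2e1, a cytochrome P450, stood at 629 and 437 CPM, and Aldh1a1, a retinaldehyde dehydrogenase, at 158 and 112. Resistin (Retn) stood at 119.8 and 130.7 CPM, and Slc7a10, an amino acid transporter, at 214 and 303. The list thus did not move together. Below the level for testing, Sncg stood at 12.2 and 0.575 CPM and Mest at 9.65 and 0.821, with Sfrp5 and Trpv3 also below it.

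Ntrk3, the receptor for neurotrophin-3 and the most abundant of the 25 lowest genes among those highest in adipocyte nuclei, stood at 2175 and 368 CPM, a ratio of 0.17 (0.16 to 0.17). Other genes highest in adipocyte nuclei and far lower at 4 °C were Tmem132b, a transmembrane protein, at 130 and 7.56 CPM, Fam20c, a secretory-pathway kinase, at 101 and 12.4, and the non-coding Gm31522 at 96.6 and 3.61. Eepd1 stood at 683 and 146 CPM, a ratio of 0.21 (0.20 to 0.22). Among regulators of adipocyte identity, 3 of 24 were at least 2-fold lower and 1 higher, against 5.66% and 7.15% of all genes, with a median log2 ratio of -0.12. Ebf2, a factor that marks brown precursors and opens brown chromatin, stood at 1374 and 645 CPM, a ratio of 0.47 (0.46 to 0.48). Nrip1, a corepressor of oxidative genes, stood at 1224 and 587 CPM, a ratio of 0.48 (0.47 to 0.49), and Tle3, a corepressor that favours white over brown genes, at 104 and 46.3. Cebpb, a cAMP-responsive factor, was the higher one, at 85.4 and 179.7 CPM, a ratio of 2.10 (1.99 to 2.23). Pparg, the master regulator of adipocytes, stood at 3929 and 3321 CPM.

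Secreted factors had a median log2 ratio of -0.38, with 1 of 14 tested members (Slit2) at least 2-fold higher and 2 (Adipoq and Rbp4) lower, where 7.15% and 5.66% of all genes were. Adipoq is a gene of the rule, so its level was shaped by the selection and it adds nothing to that count. The guidance ligands Slit2 and Slit3, of which Slit3 is not on the list, had opposite directions. Slit2, whose fragment is known to act on brown fat, stood at 28.2 and 119.8 CPM, a ratio of 4.25 (3.90 to 4.63), against 38.8 and 80.2 CPM in nuclei with no adipocyte UMI. Slit3 stood at 1496 and 311 CPM, a ratio of 0.21 (0.20 to 0.21), against 548 and 966 CPM in those nuclei, where the order was reversed. Vegfa, which drives vessel growth, stood at 519.6 and 1031 CPM, a ratio of 1.98 (1.94 to 2.03). The vessel-stabilising Angpt1 stood at 463 and 245 CPM, a ratio of 0.53 (0.51 to 0.55). Rbp4, the retinol carrier, stood at 30.5 and 14.9 CPM. Nrg4, a hormone of brown fat, stood at 2111 and 2099 CPM, a ratio of 0.99 (0.98 to 1.01).

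Cholesterol synthesis genes were at least 2-fold higher in 5 of 11 tested members, against 7.15% of all genes, at low levels. Their median log2 ratio was 0.54. Subtracting the level in nuclei with no adipocyte UMI left only 3 genes to test, with a median of -0.24. Lss stood at 9.58 and 30.6 CPM, a ratio of 3.19 (2.73 to 3.73), and Fdps at 7.03 and 33.7, with Sqle at 5.36 and 16.7. All are enzymes of the sterol pathway, and Fdps and Sqle were not highest in adipocyte nuclei. Of 16 clock genes 5 were at least 2-fold higher, again against 7.15%, and the median log2 ratio was 0.18, which turned to -0.27 without the mitochondrial limit. Subtracting the level in nuclei with no adipocyte UMI left 11 clock genes to test, with a median of -0.53. The repressor gene Ciart stood at 5.89 and 32.8 CPM, a ratio of 5.57 (4.66 to 6.68), and the activator gene Arntl at 19.5 and 50.6. Nr1d1, a repressor of Arntl, stood at 68.3 and 35.5 CPM, a ratio of 0.52 (0.47 to 0.58), and was not highest in adipocyte nuclei. The time of day of collection is not given in the sources used here. Of 12 immediate early and heat shock genes 4 were tested, and 2 were at least 2-fold higher, against 7.15% of all genes, with a median log2 ratio of 1.03. Hspa8, a chaperone, stood at 42.8 and 127 CPM, and Junb, an immediate early factor, at 7.82 and 19.9, below its 22.7 and 59.6 CPM in nuclei with no adipocyte UMI. In the stress list of 11 tested genes the median log2 ratio was 0.20, which turned to -0.16 without the mitochondrial limit. None of the 11 was at least 2-fold higher and 1 was lower, against 7.15% and 5.66% of all genes. The lower one, Phgdh, the first enzyme of serine synthesis, stood at 50.6 and 10.8 CPM, a ratio of 0.21 (0.18 to 0.26).

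**Figure D2:**
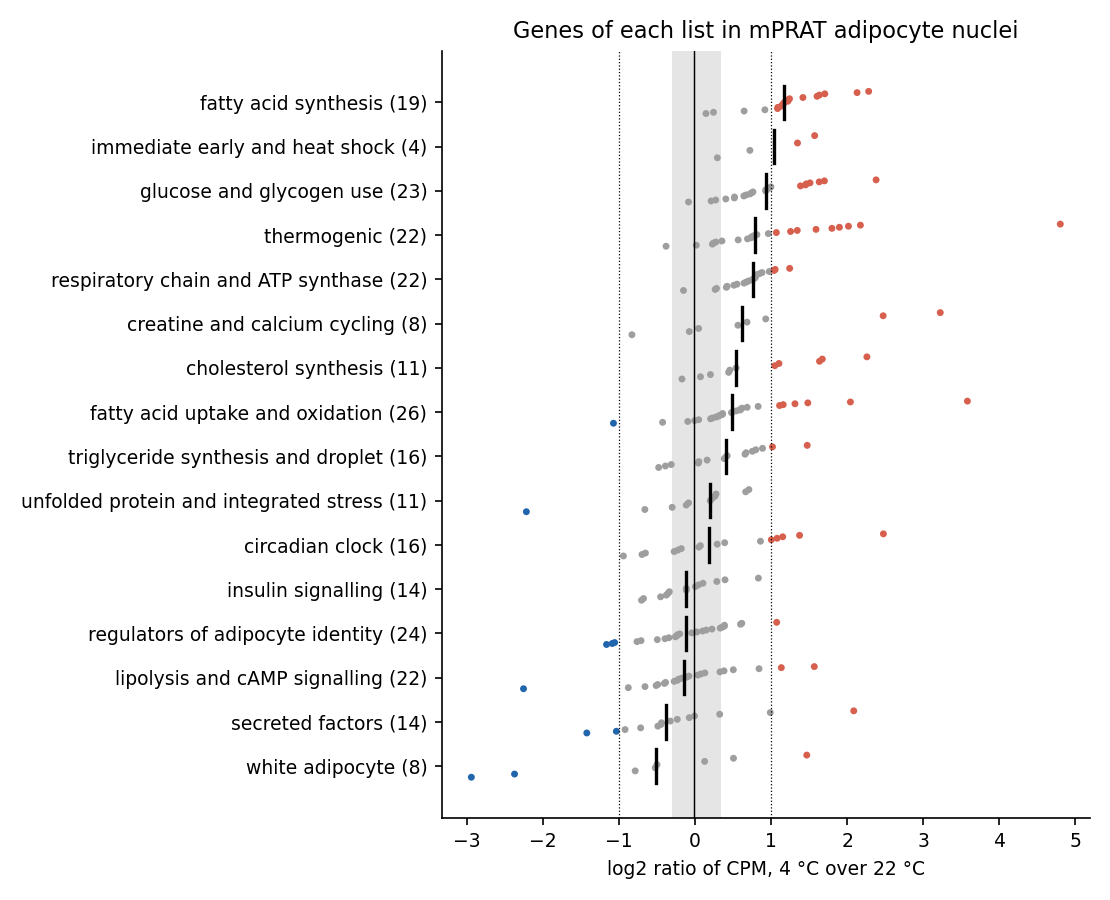
Each point is the log2 ratio of 1 tested gene (4 °C over 22 °C) in adipocyte nuclei, by list, with the number of tested genes in brackets, black bars for list medians and dotted lines at a 2-fold difference. The grey band is the interquartile range of all tested genes. The medians run from 1.17 for fatty acid synthesis to -0.51 for the white adipocyte list, an order that changes without the mitochondrial limit and in nuclei with no B, T, urothelial or kidney marker UMI.

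Among 3796 genes with a mean of at least 50 CPM, 39 were at least 4-fold higher at 4 °C and 32 at least 4-fold lower, and not all were adipocyte genes. Of the 15 with the highest and the 15 with the lowest ratio, 7 and 7 had their highest level in adipocyte nuclei. That share is near the 4280 of 8778 among all genes with a mean of at least 10 CPM. Sprr1a, a protein of epithelial envelopes, stood at 4.81 and 123 CPM, below its 346 CPM in cold nuclei with no adipocyte UMI. The same held for Gstm1, a glutathione transferase, at 20.4 and 325 CPM against 777, and for S100a6, a calcium-binding protein, at 18.1 and 209.97 CPM against 609. At the other end, Bank1, a B cell adaptor, stood at 162 and 1.07 CPM, against 3586 CPM in warm nuclei with no adipocyte UMI. Slc14a2, a urea transporter of the kidney, had 5058 counts at 22 °C and 2 at 4 °C, with a ratio interval from 0.00012 to 0.0036. Its level in other nuclei is not given here, and it is not counted as highest in adipocyte nuclei. The highest ratios among genes that were highest in adipocytes, after Elovl3, belonged to Cabcoco1 at 6.83 and 127 CPM, Acsl5, and Gmpr, a purine enzyme, at 14.9 and 154 CPM. Acsl5 passed that filter through its level at 4 °C alone, so the ranking is a description only. Dhrs9, a short-chain dehydrogenase that acts on retinol, stood at 12.8 and 102 CPM. Lncbate10, a long non-coding RNA of brown fat, stood at 18.5 and 103 CPM, a ratio of 5.57 (5.04 to 6.17).

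Single nuclei were compared after each was thinned to 2000 UMIs, which left out 272 cold and 249 warm nuclei and kept 2065 and 4015. The 22 thermogenic genes gave a median of 11 UMIs per nucleus at 22 °C and 32 at 4 °C, with quartiles of 5 and 34 at 22 °C and of 7 and 45 at 4 °C. Their sum in nuclei with no adipocyte UMI was 1.64 and 2.19 per 2000 UMIs. Those nuclei were chosen for lacking RNA of the 6 adipocyte genes, so this sum is no measure of stray adipocyte RNA. Fatty acid synthesis genes gave medians of 16 and 33 UMIs, with 36.4% of cold nuclei above the warm 90th percentile, and glucose genes medians of 10 and 17. White adipocyte genes gave medians of 2 and 1. Both libraries had a low and a high range of thermogenic UMIs, so nuclei were divided at 20 UMIs, a limit chosen after the values were seen that marks a range and not a cell type. The upper range held 1640 of 4015 warm nuclei (40.8%, exact binomial interval 39.3 to 42.4) and 1282 of 2065 cold nuclei (62.1%, 59.9 to 64.2). These intervals cover counting error only, since nuclei of 1 library are not replicates of a temperature. Without thinning, 38.8% of all warm and 60.2% of all cold adipocyte nuclei had at least 1% of their UMIs from these genes. Limits of 15 and 25 UMIs gave 45.6% and 64.6%, and 35.8% and 59.2%. In the band from 15 to 24 UMIs lay 9.84% of warm and 5.47% of cold nuclei. The median within the upper range was 38 thermogenic UMIs at 22 °C and 42 at 4 °C, and within the lower range 6 and 5, values that the division itself largely fixes.

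**Figure D3:**
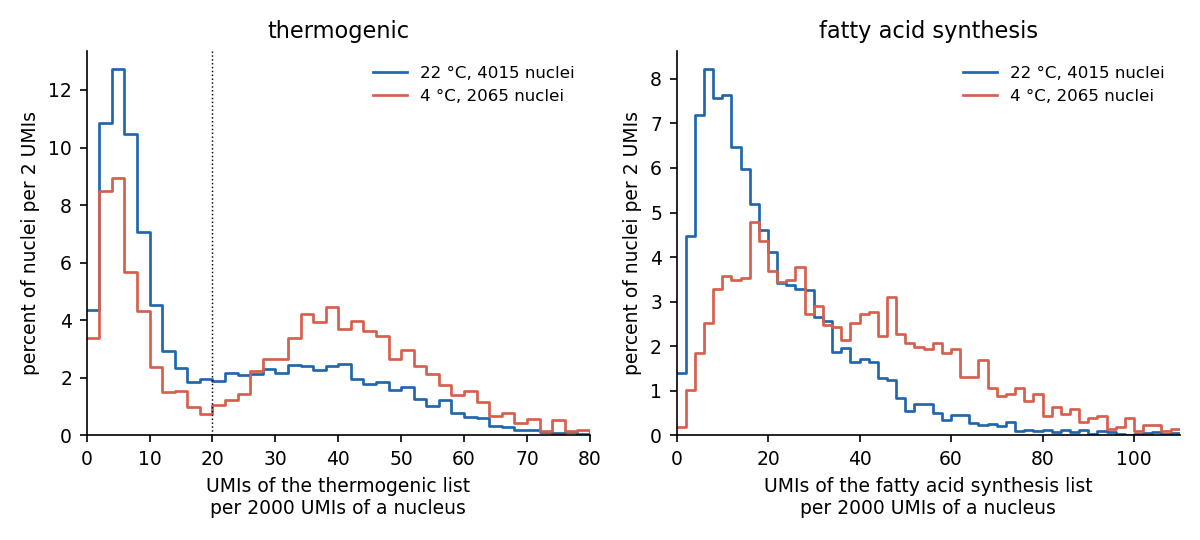
Lines give the percent of adipocyte nuclei per bin of 2 UMIs, by the UMIs of a list per 2000 UMIs of the nucleus, at 22 °C (blue, 4015 nuclei) and 4 °C (red, 2065 nuclei). Thermogenic UMIs fall into a low and a high range on either side of the dotted line at 20, and 62.1% of cold nuclei lie to its right against 40.8% of warm ones. Fatty acid synthesis UMIs form 1 broad range, with a median of 33 in cold and 16 in warm nuclei.

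The summed fatty acid synthesis UMIs were higher at 4 °C within both ranges. The median was 24 UMIs at 22 °C and 39 at 4 °C in the upper range, and 11 and 20 in the lower range. The means were 26.4 and 41.1 in the upper range, and 17.0 and 33.6 in the lower. In the lower range some nuclei thus lay far above the median, and they weigh more in the ratios of summed counts. Within the lower range 13 of 19 of these genes were at least 2-fold higher, where 5.20% of all genes were, and within the upper range 9 of 19, where 8.47% were. Acly had a ratio of 3.44 (3.19 to 3.72) in the lower and 2.27 (2.13 to 2.42) in the upper range, and Elovl6 of 4.02 (3.70 to 4.37) and 3.28 (3.15 to 3.41). Acaca went the other way in the upper range, from 5158 to 4340.5 CPM with a ratio of 0.84 (0.82 to 0.86), while its ratio in the lower range was 1.28 (1.25 to 1.32). Acsl5 had a ratio of 10.2 (9.001 to 11.7) in the upper range, from 80.5 to 824 CPM, and of 2.66 (1.91 to 3.70) in the lower range, from 17.3 to 46.0 CPM. The lower-range levels lay below the 57.0 CPM of cold nuclei with no adipocyte UMI. Across nuclei, thermogenic and fatty acid synthesis UMIs had a Spearman rho of 0.43 at 22 °C and 0.16 at 4 °C, and thermogenic and white adipocyte UMIs of -0.59 and -0.51, with each pair of sums drawn from the same 2000 UMIs of a nucleus.

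Several genes had opposite directions in the 2 ranges. Npr3 stood at 88.1 and 201 CPM in the upper range, a ratio of 2.28 (1.97 to 2.65), and at 219 and 68.3 CPM in the lower range, a ratio of 0.31 (0.25 to 0.38). Cyp2e1 stood at 144 and 57.3 CPM in the upper and at 897 and 1105 CPM in the lower range. Aldh1a1 and Retn had lower-range ratios of 1.26 (1.12 to 1.43) and 1.77 (1.58 to 1.98), and in the upper range rested on at most 56 counts a library. Slc7a10 was higher at 4 °C in both, with ratios of 2.63 in the lower and 1.77 in the upper range. Adcy3 stood at 213 and 572 CPM in the upper and at 76.4 and 58.1 CPM in the lower range. Ntrk3 was lower at 4 °C in both, at 4430.5 and 585 CPM in the upper and 1066 and 60.0 CPM in the lower range. Nnat was likewise lower in both, with ratios of 0.11 and 0.19. Whether the ratios differ between the ranges was not tested.

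**Figure D4:**
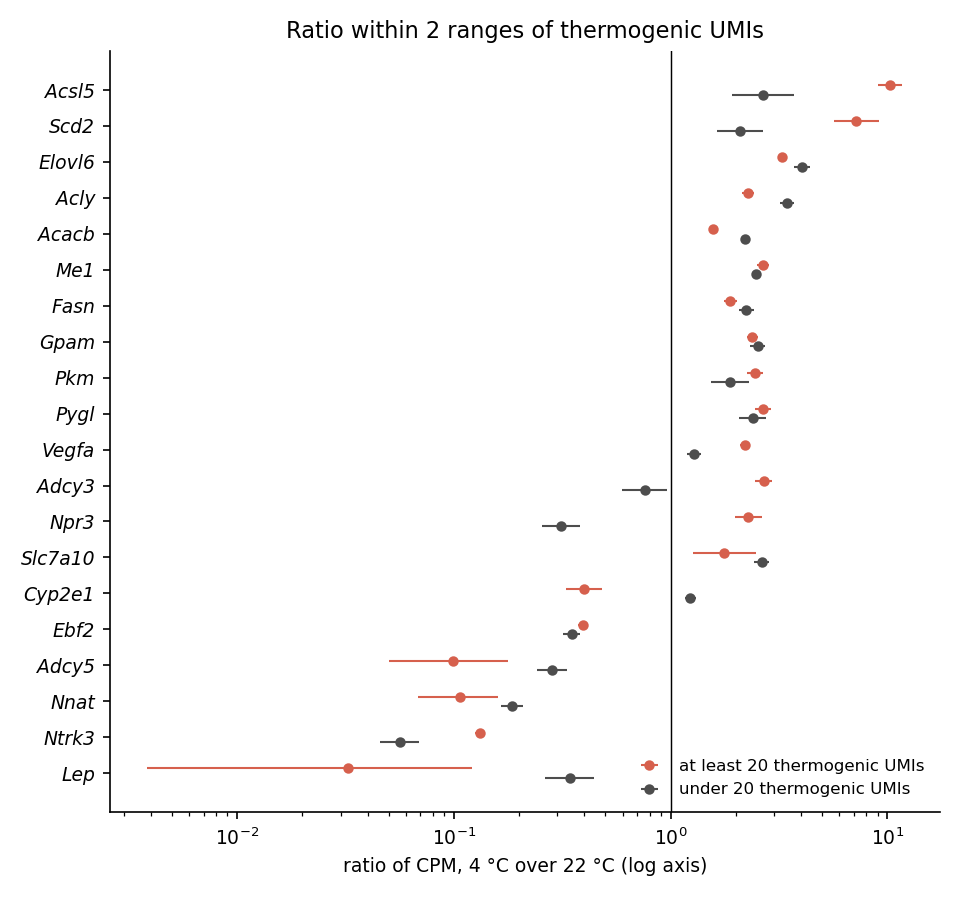
Points are ratios of CPM at 4 °C over 22 °C on a logarithmic axis, within nuclei of at least 20 thermogenic UMIs (red) and under 20 (grey), and lines are 95% exact conditional binomial intervals, which cover counting error only. Acsl5 has ratios of 10.2 and 2.66, Npr3 lies on opposite sides of 1, and Nnat and Ntrk3 lie below 1 in both ranges. The upper-range ratio of Lep rests on 2 cold counts.

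Cold mPRAT adipocytes were set beside those of the other depots, from mice with the same strain, sex, diet, stated age and temperatures, by the same rule, with 11111 cold and 18769 warm nuclei in iBAT and 2927 and 5245 in iWAT. Of 7927 genes tested in both mPRAT and iBAT, 459 were at least 2-fold higher in mPRAT and 486 in iBAT, and 266 in both, which is 58.0% and 54.7% of these lists. Lower in both were 219, which is 73.5% of 298 and 37.8% of 579. The log2 ratios had a Pearson r of 0.76 across genes, which are not independent replicates and share the chemistry of the series. With iWAT, over 7621 genes, 69 were higher in both, 26.1% of 264 and 31.2% of 221, and 167 lower in both, 37.95% of 440 and 45.1% of 370, with a Pearson r of 0.44. The background in iBAT was 6.8% higher and 7.83% lower, and in iWAT 3.07% and 5.85%. A set of 12 genes was at least 2-fold higher in mPRAT and lower in iBAT, of which 10 were mitochondrial and the others Fmo5 and Hoxb3, which were not highest in adipocyte nuclei. The opposite set held 4 genes, of which Chst8 is described below. With iWAT, 6 genes were higher in mPRAT and lower in iWAT, and 7 the other way. The difference between depots was not tested.

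The summed thermogenic level of cold mPRAT, 13653 CPM, lay between that of warm mPRAT, 8849, and warm iBAT, 19281 CPM, and cold iBAT reached 22200.1. In mPRAT at 1 and 2 months and 22 °C it was 12536 and 11867 CPM. Those 2 young libraries had medians of 1777 and 1798 UMIs per adipocyte nucleus, and warm and cold iBAT 2307 and 6745. In adipocyte nuclei of the young mPRAT libraries, kidney markers summed to 235 and 592 CPM and urothelial and epithelial markers to 97.5 and 245. The part of these differences in the sums was not tested. Fatty acid synthesis genes summed to 18895 CPM in cold mPRAT, above the 17134 CPM of warm iBAT and below the 23189.6 of cold iBAT, and to 2789 and 10012 CPM in warm and cold iWAT. Ucp1 stood at 425 and 1454 CPM in warm and cold iBAT and at 0.72 and 29.97 in iWAT. Acsl5 stood at 211 and 1249.9 CPM in iBAT and at 19.2 and 19.996 CPM in iWAT. Ntrk3 stood at 5980.2 and 998 CPM in iBAT, and at 119 and 148 CPM in iWAT. Nnat stood at 58.7 and 9.03 CPM in iBAT and at 1879 and 885 in iWAT.

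**Figure D5:**
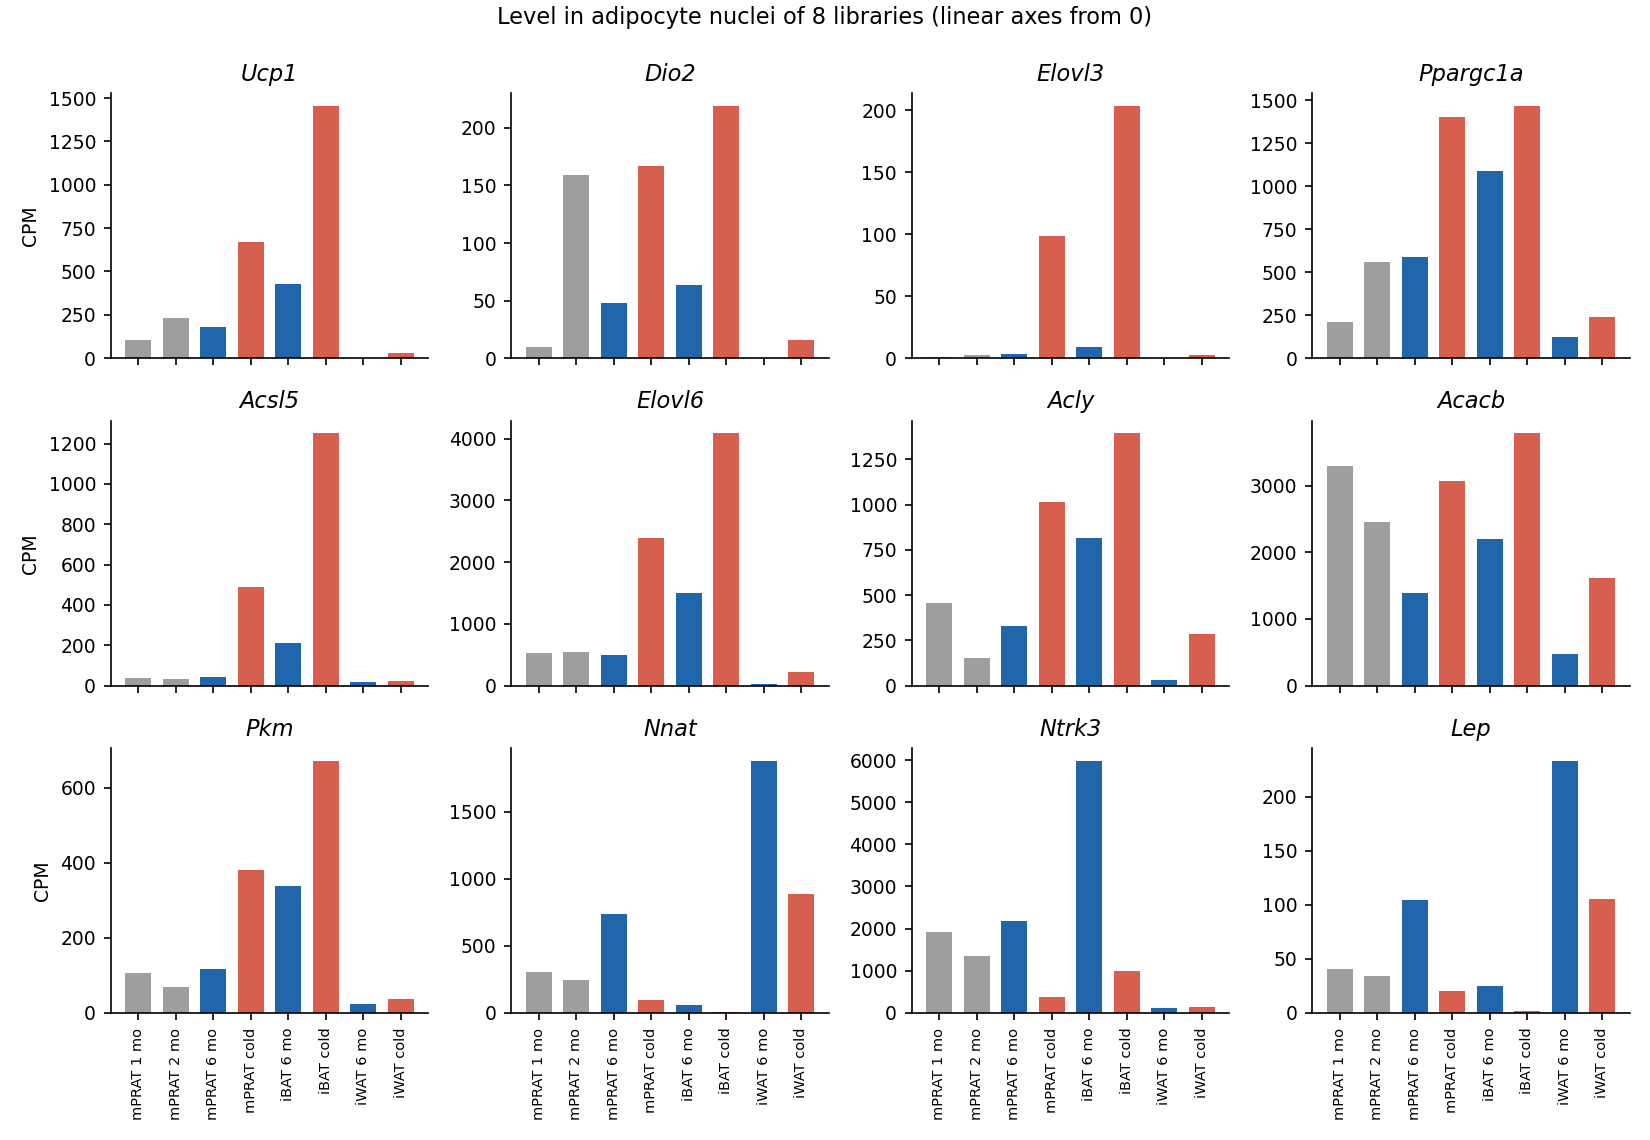
Bars give the CPM of 12 genes in the adipocyte nuclei of 8 libraries on linear axes from 0, each bar 1 library without replicates, with red for 4 °C, blue for 22 °C at 6 months and grey for 22 °C at 1 and 2 months. Ucp1, Elovl3, Acsl5 and Elovl6 are higher in the red bar of mPRAT and iBAT than in the blue bar beside it. Nnat and Lep are highest in warm iWAT.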

How the data were processed

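The deposited matrices hold raw UMI counts per gene and barcode, which the authors made with Cell Ranger 7.0.0, per the file headers. The build was mm10, per the submitters' processing notes, and the gene annotation is not given in the sources used here. Counts were summed over adipocyte nuclei of each library and divided by their total (CPM). Genes with a mean of at least 10 CPM over both libraries were compared by their ratio, without a test. Intervals are exact conditional binomial for ratios and Clopper-Pearson for shares, with scipy. The ratio code was tested on simulated data. The members and lists were chosen with earlier results of these data known. Named genes were the 15 highest and 15 lowest ratios among genes with a mean of at least 50 CPM, up to 5 members per list, all thermogenic, fatty acid synthesis and white adipocyte genes, and the genes of the rule. Others were chosen after their values were seen, among them the 25 highest and lowest genes that led in adipocytes, genes set side by side within a list, and genes opposed between depots. Doublets were left in; as an alternative, the highest scrublet scores (scanpy 1.11.5) were removed at 0.8% per 1000 nuclei. Promoters matched 267 of 348 genes. The alternatives were 13 planned and 4 added after the data were seen, besides limits on the 20-UMI division. A few genes are not reported here.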

Additional observations from a re-analysis of the deposited data

How the results depend on the processing

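Without the mitochondrial limit, genes at least 2-fold higher at 4 °C numbered 983 in place of 628 and lower ones 847 in place of 497, thermogenic genes higher 4 in place of 9, fatty acid synthesis genes higher 3 in place of 15, and white adipocyte genes lower 4 in place of 2. Most list medians, negative ones included, were lower in this setting. The barcodes that it adds were 1064 cold and 60 warm, and the cause was not tested. With 10 CPM added to both levels the counts were 328 higher and 294 lower, with a mean of at least 2 CPM 1204 and 1228, with at least 50 CPM 183 and 163, and among genes highest in adipocytes 332 and 237. The last 3 settings change how many genes are compared, as does subtracting the level in nuclei with no adipocyte UMI, which left 2387 genes. White adipocyte genes lower were 4 with a mean of at least 2 CPM, where 11 were compared. The log2 ratio of Fgf1 turned to -1.17 when the level in nuclei with no adipocyte UMI was subtracted. That of Mageb18 turned to 2.44 in nuclei with no UMI of B, T, urothelial or kidney markers, of which 424 cold and 1687 warm were left, and the cause was not tested. Outside the mitochondrial setting, the count of fatty acid synthesis genes ran from 13 to 16 and of thermogenic genes from 8 to 13. Small list medians also turned: stress genes to -0.16 without the mitochondrial limit and lipolysis and cAMP genes to 0.02 with thinned nuclei. The median of regulators was 0.03 over the 15 genes left when the level in nuclei with no adipocyte UMI was subtracted. It was 0.06 over the 20 regulators highest in adipocytes. No paired analysis was possible because each group had 1 library and the labels give no replicate numbers. With 1 library per group, no depth can show how far animals differ.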

Other observations

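Genes opposed between mPRAT and iBAT are given as values, chosen after they were seen. Chst8, a sulfotransferase that led in adipocyte nuclei, stood at 28.4 CPM in warm and 11.5 in cold mPRAT and at 15.3 and 85.1 in iBAT. Hoxb3, a gene of body position, stood at 9.71 and 26.2 CPM in mPRAT and at 14.98 and 7.34 in iBAT. Fmo5, a monooxygenase, stood at 53.9 and 156 CPM in mPRAT and at 16.3 and 7.89 in iBAT, and neither Hoxb3 nor Fmo5 was highest in adipocyte nuclei. The difference between depots was not tested. In mPRAT adipocytes, Rasgrf2, an exchange factor of small GTPases, stood at 95.2 and 18.2 CPM, and in iWAT at 238 and 295.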
